A study of Homo sapiens with 9 samples.

Results

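The 33 genes described here encode enzymes that make purine and pyrimidine nucleotides from small precursors, recover them from free bases and nucleosides, or turn them into the building blocks of DNA. They were chosen by name, as the rows of a read count table for a fixed list of nucleotide synthesis and salvage genes, and the rule uses no measured value. Earlier results of these data were known when the list was drawn, so the counts of members below are a description and not a blind comparison with other genes. The members are 33 of 58347 Ensembl gene rows. All 33 passed the filter on low counts, with between 305 and 17429 counts per library, so none was lost or kept because of 1 group.

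RNA was sequenced from 9 libraries of K562, a human erythroleukaemia cell line. Every library came from the same engineered cells, which stably expressed dCas9, an MS2-Fkbp(1x) fusion and an SS18-Frb fusion, each from an EF1a promoter and with dCas9 and SS18-Frb delivered by lentivirus. SS18 is a subunit of the BAF chromatin remodelling complex, and rapamycin bridges Fkbp to Frb and so can bring the SS18 fusion to the site of a guide RNA. The cells carried a guide against the promoter of HBG1, or else a control guide without a target, and were treated for 24 h with 10 nM rapamycin or with DMSO, the solvent. For the HBG1 sgRNA there were 3 libraries under rapamycin (n = 3) and 3 under DMSO (n = 3). For the non-targeting sgRNA there were replicates 1 and 2 under rapamycin (n = 2) and replicate 2 alone under DMSO (n = 1). Nothing in the labels says that replicates came from separate cultures or cell clones, so p-values measure only the spread between these libraries. Rapamycin is also an inhibitor of the growth kinase complex mTORC1, with or without a guide. Fusion recruitment and mTORC1 inhibition came with the same treatment and cannot be told apart by a comparison of rapamycin with DMSO.

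Libraries held 19797409 to 31619671 counts. Same-numbered libraries with the HBG1 sgRNA deviated together from their group means, and replicate 1 stood apart from the other replicates in both treatments. HBG1 itself, the targeted gamma-globin gene, whose reads may be divided with its near-identical copy HBG2, was at 137 to 436 CPM (counts scaled to library size) with its guide under DMSO, at 1533 to 2448 CPM with its guide under rapamycin, and at 8233 to 8944 CPM in the 3 non-targeting libraries. Of 8 markers of K562 cells fixed for this check, all were expressed in every library, among them GATA1 at 190 to 274 CPM. Among markers of other cell types, CD3E, MS4A1 and ALB were below 0.4 CPM everywhere, COL1A1 and PECAM1 reached at most 5.69 CPM, and LYZ and EPCAM were present, the latter at 36.9 CPM or more. GATA1 and NFE2, both erythroid markers, rose under rapamycin with the HBG1 sgRNA (log2 fold changes 0.31 and 0.39, adjusted p = 0.0326 and 0.0144), and their part in the results below was not tested. In RNA from a whole culture, fewer cells of a type and less RNA of a gene per cell cannot be told apart.

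Purines are built stepwise on phosphoribosyl pyrophosphate (PRPP), beginning with the amidotransferase PPAT and ending at IMP, which is then turned into AMP or GMP. The pyrimidine ring is instead closed first, by the multi-enzyme protein CAD and by DHODH, and joined to PRPP by UMPS to give UMP. Ribonucleotide reductase and thymidylate synthase then supply deoxynucleotides for DNA replication. mTORC1 is known to promote both routes, through phosphorylation of CAD and through the transcription factor ATF4 and the mitochondrial one-carbon enzyme MTHFD2.

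PPAT and PAICS, which encode the first and the sixth to seventh activities of the purine route, lie head to head on chromosome 4, and their shared upstream DNA is shown because both transcripts fell. In RefSeq (GRCh38.p14) the PPAT start is at 56435615 on the minus strand and the PAICS start at 56435752 on the plus strand, with 136 bases between them. The stretch below runs 5′ to 3′ on the PAICS strand, at chr4:56435616-56435740, which stops before the first PAICS exon base of GENCODE 29. Capitals mark 3 GC boxes (GGGCGG), at -59, -51 and -32 from the PAICS start.
PPAT-PAICS intergenic: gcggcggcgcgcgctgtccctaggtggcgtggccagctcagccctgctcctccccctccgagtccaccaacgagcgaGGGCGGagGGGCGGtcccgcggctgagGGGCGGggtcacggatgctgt

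Further short stretches are shown because they hold an E-box (CACGTG) or a CCAAT box near the start of genes that fell. The first is in the first exon of PAICS, at chr4:56435780-56435801 on the plus strand, with the E-box at 41 from the PAICS start and at -182 from the PPAT start. The GART stretch is at chr21:33542987-33543015 on the minus strand, with CCAAT boxes at -123 and -99, the latter in reverse. The NME1 stretch is in the first exon, at chr17:51153581-51153608 on the plus strand, with its E-box at 35. The UCK2 stretch is at chr1:165827564-165827593 on the plus strand, with a reversed CCAAT box at -38. Capitals mark the motif in each.
PAICS: ctgtatttgctgCACGTGgaaa
GART: CCAATtcggtctctcgccttcctgATTGG
NME1: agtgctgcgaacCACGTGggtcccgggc
UCK2: ctgcccgcccggATTGGagcagcagcatca

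RefSeq windows from 250 bases before to 50 bases after a start were found for 30 members, in 45 windows, and none for ADSL, IMPDH2 and RRM2B. Motifs were searched on both strands, and the GC box was added after these sequences had been seen. The E-box CACGTG was in 6 of 45 member windows (13.3%) and in 7.26% of all 35116 windows, and the members with it were PPAT, PAICS, ATIC, DHODH, NME1 and DCK. The CCAAT box was in 35.6% of member windows and 34.6% of all windows. The E2F-type motifs TTGGCGC and TTCCCGC were in 8.89% and 20% of member windows against 3.04% and 6.55% of all. The GC box GGGCGG was in 73.3% of member windows and 45% of all. These are matches of letters in short windows, and several members have more than 1 window that overlaps another. The E-box of PPAT and PAICS is 1 site counted for both genes, as are the 3 GC boxes between their starts.

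Before any comparison, levels per length spread the members over a wide range. In TPM (counts divided by merged exon length and scaled to library size, computed here, mean over the 9 libraries), the nucleoside diphosphate kinase NME2 was at 306, thymidylate synthase TYMS at 254, thymidine kinase TK1 at 183 and the IMP dehydrogenase IMPDH2 at 172. At the low end were the CTP synthase CTPS2 at 8.85 TPM, the dihydroorotate dehydrogenase DHODH at 5.97 TPM and the deoxynucleotide hydrolase SAMHD1 at 2.84 TPM. Within the purine ring pathway the committed enzyme PPAT, at 24.7 TPM, and PFAS, at 27.8 TPM, were the lowest, and they were nearly level in the HBG1 sgRNA DMSO libraries (means of 30.4 and 31.1 TPM). ADSL was at 30.3, ATIC at 69.1, GART at 97.3 and PAICS at 121 TPM. The pyrimidine ring enzymes were lower as a group, with CAD at 41.2, UMPS at 10.6 and DHODH at 5.97 TPM. Some exons are shared with other genes, which bears on these levels: 46.6% of TYMS exon bases lie over antisense genes, 20.2% of RRM2 and 18.9% of ADSL exon bases over another gene, and no strand setting is given in the sources used here. NME2 and NME1 share 22.9% and 18.6% of their exon bases with a read-through gene, NME1-NME2.

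With the HBG1 sgRNA, 8 of the 33 transcripts were lower under rapamycin and none was higher at an adjusted p under 0.05 (edgeR quasi-likelihood test, Benjamini-Hochberg adjustment over 23675 genes). The 8 were PPAT, GART, PFAS and PAICS of the purine ring, UMPS of the pyrimidine ring, and CTPS1, NME1 and UCK2. They make up 24.2% of the members, where 6.80% of all genes tested were called, 4.05% lower and 2.75% higher. Every member had at least 305 counts per library, while the genes tested include some with far fewer, so these shares differ in depth. In a fit of the 17759 genes with a CPM of at least 1 in 3 libraries, 10.2% were called. That fit called 10 members, 9 lower and 1 higher. The changes were modest in size, with log2 fold changes from -0.53 to 0.24 over all 33. The median member was at -0.22, against 0.02 for all genes tested, and 28 members lay below 0 and 5 above. Ranked by library values alone, 21 members had all 3 rapamycin libraries below all 3 DMSO libraries, where 13.1% of all genes did, 2 had them all above, where 12.2% did, and 10 overlapped. The count of calls rested on single libraries: it was 3 without DMSO replicate 2 (UCK2, PPAT and NME1) and 3 without rapamycin replicate 3 (UCK2, PPAT and PFAS). Of all genes, 2.85% and 2.98% were called in those fits.

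In their deviations from group means, replicates 2 and 3 with the HBG1 sgRNA correlated crossed (0.258 and 0.194) nearly as matched (0.278 and 0.231). The libraries with the HBG1 sgRNA were paired here by replicate number. A fit of those 6 libraries with the replicate number as a block, called the 6-library block from here on, called 18 members, 17 lower and 1 higher, where 17.1% of all genes were called and 9.62% were lower. It held the 8 genes above and added PRPS1, PRPS2, ATIC, ADSS, IMPDH1, ADK, CAD, DHODH and RRM2 as lower and TK1 as higher. The same block on all 9 libraries called 13 members, where 9.24% of all genes were called, and did not call PRPS1, PRPS2, ATIC, ADK or DHODH. Without any block, the 6 libraries alone gave 6 member calls, where 6.82% of all genes were called. Within the pairs, the median member was at -0.21, -0.22 and -0.18 on the log2 scale for replicates 1, 2 and 3, and 27, 28 and 28 members were lower under rapamycin. In all 3 pairs 25 members were lower, as were 22.4% of all genes, and 3 were higher, as were 22.6%.

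**Figure D1:**
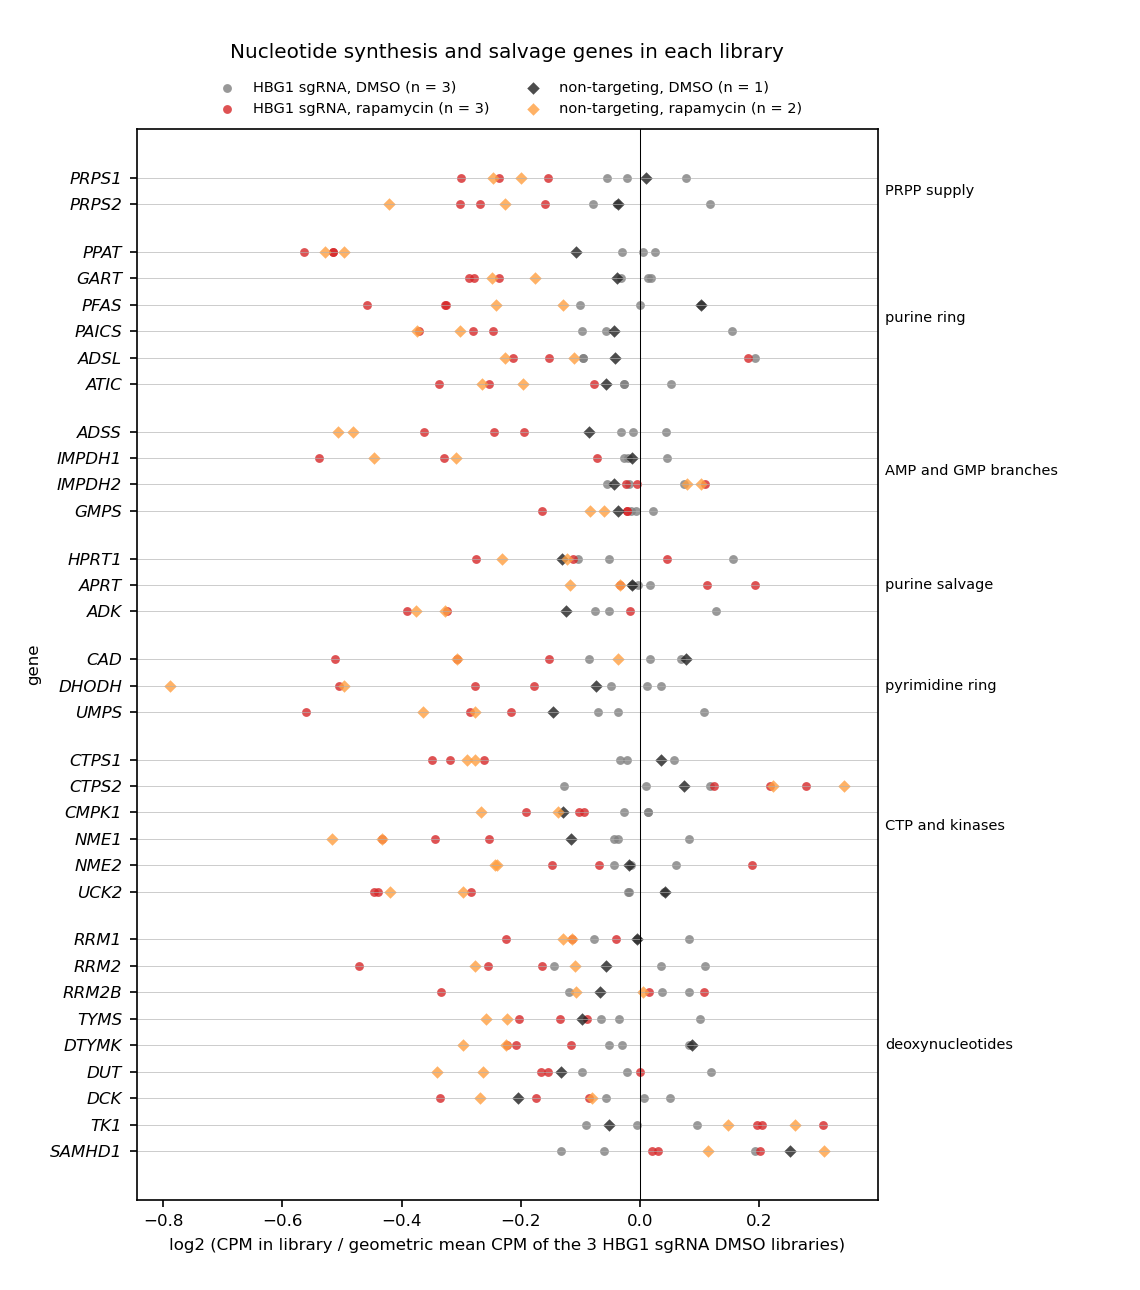
Each row is 1 gene and each point 1 library, placed by the log2 ratio of its CPM to the geometric mean of the 3 HBG1 sgRNA DMSO libraries, with genes grouped by role. Rapamycin libraries of both guides sit left of the DMSO libraries for PPAT, GART, UCK2 and CTPS1, while IMPDH2, ADSL and RRM2B overlap, and TK1 and CTPS2 sit to the right.

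PRPP, the ribose donor of both purine and pyrimidine ring synthesis, is made by the synthetases PRPS1 and PRPS2. PRPS1 was at 103, 93.9 and 96.1 CPM in the 3 DMSO libraries with the HBG1 sgRNA and at 82.8, 79.3 and 87.7 CPM in the 3 rapamycin libraries. With the non-targeting sgRNA it was at 98.3 CPM under DMSO and at 82.3 and 85 CPM under rapamycin, so all 5 rapamycin libraries were below all 4 DMSO libraries. PRPS2 was at 75.1, 67.4 and 65.6 CPM under DMSO and 62.0, 56.2 and 57.5 CPM under rapamycin with the HBG1 sgRNA, and at 67.5 against 59.2 and 51.7 CPM with the non-targeting sgRNA, again without overlap. With the HBG1 sgRNA, PRPS1 had a log2 fold change of -0.23 (SE 0.08), which did not pass the test (adjusted p = 0.079) and passed in the 6-library block (adjusted p = 0.0203) but not in the block on all 9 libraries (adjusted p = 0.0662). PRPS2 was at -0.25 (SE 0.09, adjusted p = 0.108), with adjusted p = 0.0206 in the 6-library block and 0.0612 in the block on all 9.

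PPAT, which catalyses the first committed step of purine synthesis, had the largest change of the 33. It was at 80.9, 82.0 and 78.9 CPM in the DMSO libraries and at 56.4, 56.4 and 54.5 CPM in the rapamycin libraries with the HBG1 sgRNA. The gap between treatments was many times the spread within each, at 80.6 ± 1.54 against 55.7 ± 1.08 CPM (SD, n = 3 each). The transcript fell by 30.9% (log2 fold change -0.53, SE 0.07, adjusted p = 5.21e-04), and the 3 pairs gave -0.52, -0.54 and -0.53. The non-targeting libraries fell on the same sides, at 74.8 CPM under DMSO and 57.1 and 55.9 CPM under rapamycin.

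PFAS, which adds a nitrogen from glutamine in the fourth step, was at 97.8, 105 and 91.2 CPM under DMSO and 71.2, 78.0 and 78.1 CPM under rapamycin. All rapamycin values were lower, and PFAS fell by 0.37 on the log2 scale (log2 fold change -0.37, SE 0.08, adjusted p = 0.0107). PAICS, the bifunctional carboxylase and ligase beside PPAT, was at 565, 488 and 475 CPM under DMSO and 428, 393 and 418 CPM under rapamycin. It fell as well (log2 fold change -0.30, SE 0.08, adjusted p = 0.0256), with the highest value in DMSO replicate 1. The call was lost in 5 of 15 alternative settings, among them without that library (-0.22, adjusted p = 0.0883). PAICS changed less than its head-to-head neighbour PPAT in each pair, at -0.40, -0.31 and -0.18. The difference between the neighbours was not tested.

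GART, a trifunctional enzyme of the same route, is given by library although its change was under the size set for that, a choice made after its values were seen. It was at 414, 415 and 401 CPM under DMSO and 348, 336 and 338 CPM under rapamycin, and it fell by 17% (log2 fold change -0.27, SE 0.06, adjusted p = 0.0197). With the non-targeting sgRNA it was at 399 CPM under DMSO and at 363 and 345 CPM under rapamycin. ATIC, which closes the ring to IMP, was at -0.22 and did not pass (adjusted p = 0.102), with 0.0168 in the 6-library block and 0.0565 in the block on all 9 libraries. The lyase ADSL, used both in the ring and in AMP synthesis, was the exception among the 6: at 127, 104 and 104 CPM under DMSO and 126, 100 and 95.9 CPM under rapamycin its groups overlapped (log2 fold change -0.06, SE 0.11, adjusted p = 0.811). Without DMSO replicate 1 its value was 0.05. Of the 6 ring genes, 4 were called lower and 5 in the 6-library block, where 4.05% and 9.62% of all genes were. Their median was -0.29.

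From IMP, the first step to AMP is made by ADSS and the first step to GMP by the IMP dehydrogenases, and GMPS completes GMP. IMPDH1, the less abundant dehydrogenase here, was at 85.1, 89.0 and 84.7 CPM under DMSO and 59.4, 82.0 and 68.7 CPM under rapamycin with the HBG1 sgRNA. The non-targeting libraries were at 85.4 CPM under DMSO and 63.3 and 69.6 CPM under rapamycin, and all 5 rapamycin libraries were below the 4 DMSO libraries. Its log2 fold change of -0.30 (SE 0.10) had an adjusted p of 0.086, and of 0.00775 in the 6-library block. IMPDH2 was at 244, 229 and 223 CPM under DMSO and 250, 231 and 228 CPM under rapamycin, with overlapping groups (log2 fold change 0.03, SE 0.07, adjusted p = 0.876). It was at 225 CPM under DMSO and at 245 and 249 CPM under rapamycin with the non-targeting sgRNA, and its sign turned, at -0.02, without rapamycin replicate 1. ADSS was at -0.27 (adjusted p = 0.0556, and 0.0165 in the 6-library block), and GMPS at -0.07 (adjusted p = 0.631).

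Purine salvage returns free bases and adenosine to the nucleotide pool, and edgeR and DESeq2 called 0 of its 3 genes, with 1 (ADK) at an unadjusted p under 0.05. Of all 23675 genes tested, 4933 were at such a p in edgeR. HPRT1, which recovers hypoxanthine and guanine, was at 96.8, 83.8 and 80.8 CPM under DMSO and 89.6, 71.8 and 80.4 CPM under rapamycin. Replicate 1 was the highest in both treatments and the groups overlapped (log2 fold change -0.11, SE 0.09, adjusted p = 0.546). APRT, which recovers adenine, was at 0.10 (SE 0.07, adjusted p = 0.516). Adenosine kinase ADK was at -0.24 (SE 0.10, adjusted p = 0.178), with library values that overlapped between treatments. In the 6-library block its adjusted p was 0.0262 and in the block on all 9 libraries 0.102.

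Of the 3 pyrimidine ring genes, UMPS fell, and CAD and DHODH did not pass the test. CAD, which carries the first 3 activities of the route, was at 176, 189 and 196 CPM under DMSO and 131, 168 and 151 CPM under rapamycin with the HBG1 sgRNA. These did not overlap. The non-targeting libraries were at 197 CPM under DMSO and 182 and 151 CPM under rapamycin, and 182 lies above the lowest DMSO library with the HBG1 sgRNA. The log2 fold change of CAD was -0.32 (SE 0.09, adjusted p = 0.0531, and 0.00154 in the 6-library block). CAD was called in 7 of 15 alternative settings. UMPS was at 49.1, 43.4 and 44.4 CPM under DMSO and 39.2, 30.9 and 37.4 CPM under rapamycin, without overlap, and at 41.2 against 35.4 and 37.6 CPM with the non-targeting sgRNA. It fell by 21.4% (log2 fold change -0.35, SE 0.10, adjusted p = 0.0489), the call nearest the threshold, which was lost in 7 of 15 alternative settings. CAD and UMPS lay close to the threshold on either side of it, and the difference between them was not tested. DHODH, the mitochondrial enzyme between them, was at -0.32 (SE 0.12, adjusted p = 0.129), with 0.0456 in the 6-library block and 0.106 in the block on all 9.

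CTP synthases aminate UTP, and the 2 human isozymes differed in sign. CTPS1 was at 131, 123 and 124 CPM under DMSO and 101, 105 and 98.9 CPM under rapamycin with the HBG1 sgRNA, and at 129 against 103 and 104 CPM with the non-targeting sgRNA. No value overlapped, and CTPS1 fell by 19.5% (log2 fold change -0.31, SE 0.07, adjusted p = 0.0139). CTPS2 was at 23.7, 22.0 and 20 CPM under DMSO and 26.5, 25.4 and 23.8 CPM under rapamycin, and at 23.0 against 25.5 and 27.7 CPM with the non-targeting sgRNA. Every rapamycin library was above every DMSO library, but the difference did not pass the test (log2 fold change 0.20, SE 0.11, adjusted p = 0.301).

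UCK2, the uridine-cytidine kinase of pyrimidine salvage, was at 91.3, 95.1 and 91.2 CPM under DMSO and 76.0, 67.9 and 68.2 CPM under rapamycin. It fell by 23.6% (log2 fold change -0.39, SE 0.08, adjusted p = 0.00695), and the non-targeting libraries lay apart in the same way, at 95.2 against 69.2 and 75.3 CPM. UCK2 and PPAT were the 2 members called in all 15 alternative settings. NME1, a nucleoside diphosphate kinase, was at 227, 208 and 209 CPM under DMSO and 180, 159 and 169 CPM under rapamycin, and it fell by 21.1% (log2 fold change -0.34, SE 0.07, adjusted p = 0.0105). Its neighbour NME2 was at 432, 410 and 402 CPM under DMSO and 472, 374 and 395 CPM under rapamycin, with overlap and no change past the test (log2 fold change -0.00, SE 0.08, adjusted p = 0.988). The sign of NME2 depended on the setting. CMPK1, which phosphorylates UMP and CMP, was at -0.13 (adjusted p = 0.314).

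NME1 and NME2 lie next to each other on chromosome 17 and share exons with a read-through gene, NME1-NME2. In every library the row of the read-through gene held 93.5% to 96.5% as many counts as the NME1 and NME2 rows together, so reads in the shared exons may have been counted in more than 1 row. With all 3 rows summed, the log2 fold change was -0.10 (SE 0.08, adjusted p = 0.513), and with NME1 and NME2 alone summed it was -0.11 (SE 0.08, adjusted p = 0.464).

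**Figure D2:**
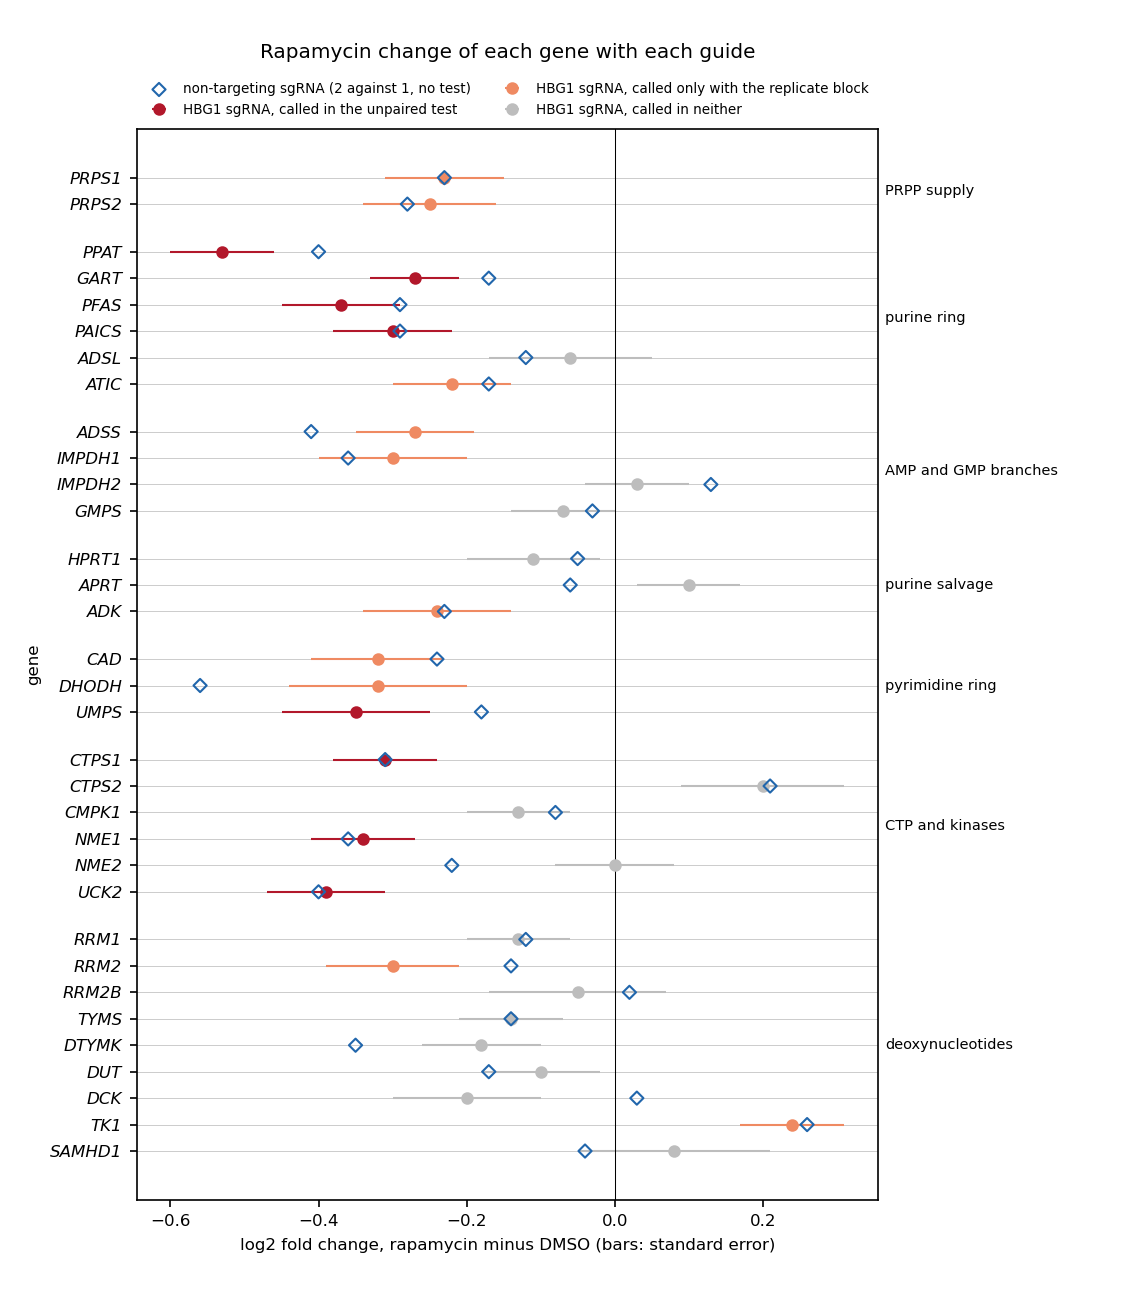
Points are the log2 fold change of each gene, rapamycin minus DMSO, with the HBG1 sgRNA (circles, bars of 1 standard error, coloured by whether the gene was called in the unpaired test, in the 6-library block alone of these, or in neither) and with the non-targeting sgRNA (open diamonds, 2 libraries against 1, no test). PPAT is farthest to the left at -0.53, the 8 genes called in the unpaired test all lie below 0, and TK1 is the 1 gene called above 0, in that block.

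Of the 9 genes of deoxynucleotide supply edgeR called 0, with 3 at an unadjusted p under 0.05, where 4933 of 23675 genes tested were. The median of the 9 was -0.13. Either block and DESeq2 each called 2 of them, RRM2 as lower and TK1 as higher. Those fits called 17.1% (6-library block), 9.24% (block on all 9) and 9.07% (DESeq2) of all genes. RRM2, the S phase subunit of ribonucleotide reductase, was at 286, 341 and 324 CPM under DMSO and 228, 265 and 282 CPM under rapamycin with the HBG1 sgRNA. The groups were apart, by as little as the gap from 286 to 282 CPM, and the non-targeting libraries, at 304 CPM under DMSO and 293 and 261 CPM under rapamycin, overlapped them. The log2 fold change of RRM2 was -0.30 (SE 0.09, adjusted p = 0.0598, and 0.00156 in the 6-library block). RRM1, the large subunit, was at 219, 206 and 196 CPM under DMSO and 191, 177 and 201 CPM under rapamycin, with overlap (log2 fold change -0.13, SE 0.07, adjusted p = 0.357).

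TYMS, which makes thymidylate, was at 359, 327 and 320 CPM under DMSO and 315, 291 and 305 CPM under rapamycin with the HBG1 sgRNA. These values did not overlap, but the difference did not pass the test (log2 fold change -0.14, SE 0.07, adjusted p = 0.264). With the non-targeting sgRNA TYMS was at 313 CPM under DMSO and at 287 and 280 CPM under rapamycin. That DMSO value lies below the 315 CPM of rapamycin replicate 1 with the HBG1 sgRNA. TK1, the salvage enzyme for the same product, is given by library because of its direction, a choice made after its values were seen. It was at 165, 154 and 145 CPM under DMSO and 178, 191 and 177 CPM under rapamycin, and at 149 against 185 and 171 CPM with the non-targeting sgRNA, so that all rapamycin libraries were the higher ones. Its log2 fold change was 0.24 (SE 0.07, adjusted p = 0.0688), and it rose in the 6-library block (adjusted p = 0.00801) and in the block on all 9 (adjusted p = 0.0418). SAMHD1, which degrades deoxynucleotides, was at 14.1, 13.4 and 16.8 CPM under DMSO and 16.9, 14.9 and 15.0 CPM under rapamycin (log2 fold change 0.08, SE 0.13, adjusted p = 0.78). The other 4 of these genes, RRM2B, DTYMK, DUT and DCK, ranged from -0.20 to -0.05, and none was called in the test or in either block, while DTYMK passed in an additive model over both guides (adjusted p = 0.0267).

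**Figure D3:**
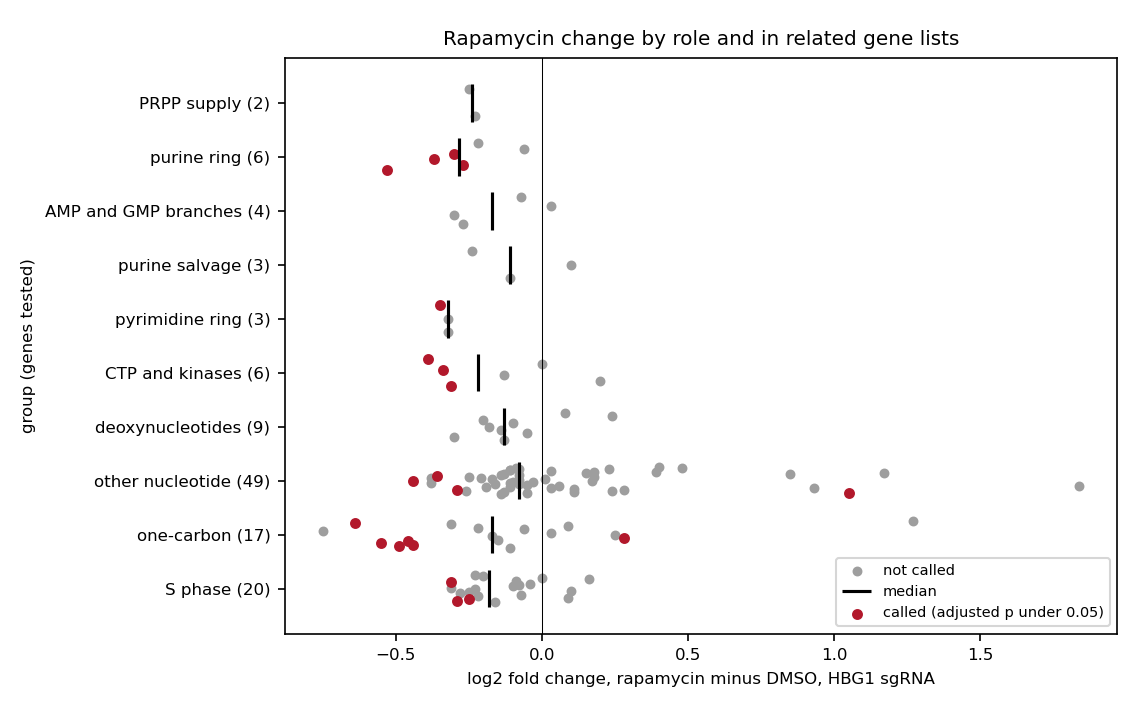
Each point is 1 gene, placed by its log2 fold change, rapamycin minus DMSO (HBG1 sgRNA), for the 7 roles and for 3 related lists, with called genes in red and the median of each group as a bar. Medians run from -0.32 in the pyrimidine ring to -0.08 among the 49 other nucleotide genes, and the called members fall in the purine ring, the pyrimidine ring and the CTP and kinase group.

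The ratio of counts of isozymes of the same step does not depend on library scaling, and it is given for 6 pairs over both guides, 5 rapamycin and 4 DMSO libraries. The measure and the pairs were taken up after their values were seen, so they are described with no test. CTPS1 counts were 5.53 to 6.17 times those of CTPS2 under DMSO and 3.76 to 4.16 times under rapamycin, without overlap. NME1 counts were 0.485 to 0.525 of NME2 counts under DMSO and 0.380 to 0.454 under rapamycin, also apart. RRM2 counts were 11.6 to 12.1 times those of RRM2B, the subunit used outside S phase, under DMSO and 9.76 to 10.9 times under rapamycin, again apart.

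The IMPDH1 to IMPDH2 ratio was 0.349 to 0.389 under DMSO and 0.237 to 0.355 under rapamycin, with overlap. The PRPS1 to PRPS2 ratio, at 1.38 to 1.47 under DMSO and 1.34 to 1.65 under rapamycin, overlapped too. The sixth pair set ADSS against ADSSL1, the muscle-type adenylosuccinate synthetase, which is not among the 33. ADSS counts were 11.7 to 13.2 times those of ADSSL1 under DMSO and 4.26 to 6.61 times under rapamycin, without overlap.

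**Figure D4:**
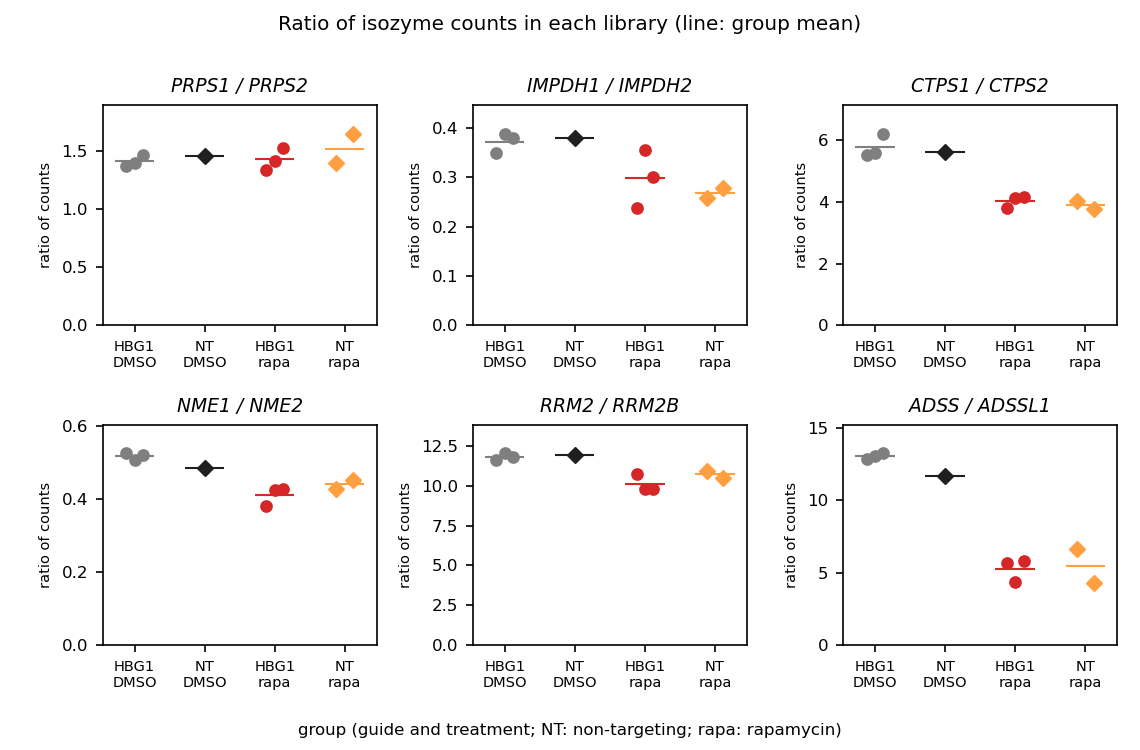
Each panel gives the ratio of counts of 2 isozymes in each of the 9 libraries by guide and treatment, with the group mean as a line and the axis from 0. The CTPS1 to CTPS2 ratio lies between 5.53 and 6.17 in the 4 DMSO libraries and between 3.76 and 4.16 in the 5 rapamycin libraries, while the PRPS1 to PRPS2 ratios of the treatments overlap.

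With the non-targeting sgRNA, 2 rapamycin libraries were set against 1 DMSO library, and no test is given. The median member was at -0.17, 28 of 33 lay below 0, and 29 of 33 (87.9%) had the sign they had with the HBG1 sgRNA, where 68% of all genes tested did. The 4 with opposite signs were APRT, RRM2B, DCK and SAMHD1, none of them called with the HBG1 sgRNA. Across the 33 members, which are not independent, the log2 fold changes with the 2 guides correlated at Pearson's r 0.816 and Spearman's rho 0.807. The guides share no library, but all libraries share the cell line and processing. Over both guides, 15 members had all 5 rapamycin libraries below all 4 DMSO libraries, where 8.29% of all genes did, and 2 had them above, TK1 and CTPS2, where 6.38% did. PPAT was at -0.40, UCK2 at -0.40, NME1 at -0.36 and CTPS1 at -0.31 with the non-targeting sgRNA, and DHODH was farthest from 0 at -0.56.

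Between the guides under rapamycin, 3 libraries against 2, edgeR called 0 of 33 members, where 0.0296% of all genes were called, and DESeq2 also called 0. At an unadjusted p under 0.05 in edgeR were 4 of 33 members, and 1484 of 23675 genes tested. The 4 were each higher with the HBG1 sgRNA: DHODH by 0.31, NME2 by 0.24, ADSS by 0.23 and DUT by 0.20 on the log2 scale, all with an adjusted p of 0.773. These 4 are named after their values were seen. ADSS, for example, was at 54.8, 50.5 and 56.7 CPM with the HBG1 sgRNA and 46.5 and 45.7 CPM with the non-targeting sgRNA. Over all members the differences ranged from -0.19 to 0.31. The difference between the rapamycin changes of the guides (the interaction, which includes the single non-targeting DMSO library) was called for 0 of 33 members by edgeR and by DESeq2, with 0 at an unadjusted p under 0.05, where 0.00422% of all genes were called. Of all 23675 genes tested, 678 had an unadjusted p under 0.05 for this difference. It ranged from -0.23 for DCK (SE 0.18) to 0.24 for DHODH (SE 0.22), so changes of the size seen for most members lie within its error.

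Other genes of nucleotide metabolism were taken as a list of breakdown, interconversion and transport genes. Of 60 listed genes 49 were tested, and 4 (8.16%) were called, with a median of -0.08, where 6.80% of all genes were called. DCTPP1, a hydrolase of damaged and modified dCTP, fell (log2 fold change -0.44, adjusted p = 0.00575), as did the purine nucleoside phosphorylase PNP (-0.29, adjusted p = 0.0368). ADSSL1 rose, from 4.96, 5.13 and 4.87 CPM under DMSO to 9.70, 11.6 and 9.78 CPM under rapamycin (log2 fold change 1.05, SE 0.18, adjusted p = 0.00258). In the 6-library block 6 of these genes were lower and 4 higher, where 17.1% of all genes were called and 9.62% were lower.

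One-carbon units for 2 purine ring carbons and for thymidylate come from folate enzymes. Of 17 tested, 6 were called (35.3%), 5 lower and 1 higher, where 6.80% of all genes were called. The mitochondrial folate carrier SLC25A32 had the lowest log2 fold change among the called genes (-0.64, adjusted p = 3.88e-04), followed by MTHFD1L (-0.55, adjusted p = 3.37e-04) and SHMT2 (-0.49, adjusted p = 5.80e-04). MTHFD2, the mitochondrial methylene-tetrahydrofolate dehydrogenase, was at 155, 137 and 137 CPM under DMSO and at 104 CPM in each rapamycin library (log2 fold change -0.46, adjusted p = 0.00174). The median of the list was -0.17, and in the 6-library block 8 were lower and 2 higher, where 9.62% of all genes were lower.

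Several deoxynucleotide genes are made in S phase, so 20 S phase genes are given beside them. Of these, 3 were called, all lower: MCM3 (log2 fold change -0.29, adjusted p = 0.0257), MCM4 (-0.25, adjusted p = 0.0316) and RFC3 (-0.31, adjusted p = 0.0363). In the 6-library block 10 were lower, where 9.62% of all genes were. The 3 calls are 15% of the list, beside 6.80% of all genes, and they were lost in 5, 6 and 7 of 15 alternative settings. The list's median of -0.18 was near the deoxynucleotide median of -0.13. The part of these genes in the changes of the deoxynucleotide genes was not tested. MYC, which encodes a transcription factor known to bind E-boxes of nucleotide synthesis genes, was at 247, 219 and 211 CPM under DMSO and 252, 266 and 253 CPM under rapamycin with the HBG1 sgRNA. Its log2 fold change was 0.19 (SE 0.07, adjusted p = 0.15), with adjusted p = 0.0315 in the 6-library block and 0.111 in the block on all 9. All rapamycin libraries with the HBG1 sgRNA were above its DMSO libraries. With the non-targeting sgRNA MYC was at 210 CPM under DMSO and at 240 and 241 CPM under rapamycin. These rapamycin values lie below the 247 CPM of DMSO replicate 1 with the HBG1 sgRNA.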

How the data were processed

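The authors deposited raw read counts, whole numbers by Ensembl gene and library, in 1 table. Per the labels' protocols, RNA was extracted with RNeasy, selected with poly-T beads and made into libraries with a NEBNext Ultra kit. The submitters' processing notes name STAR 2.7.3a, featureCounts, Subread 2.0.0, R 4.1.2, limma 3.34.9, edgeR 3.24.0 and build GRCh38. The annotation release, the strand setting and the handling of reads over several genes are not given in the sources used here. Symbols, positions and exon lengths came from GENCODE 29, which held 58039 of 58347 IDs. Promoter windows came from RefSeq (GRCh38.p14).

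Counts were tested with edgeR 4.0.16 in R 4.3.3: filterByExpr with a minimum count of 10 left 23675 genes, TMM factors ran from 0.977 to 1.02, and all 9 libraries entered 1 quasi-likelihood fit with 1 mean per group and no block. A gene was called at a Benjamini-Hochberg adjusted p under 0.05. Levels are TMM-scaled CPM or TPM computed here. Alternatives were other scaling, DESeq2 1.42.0, other filters, a replicate block, an additive model over both guides and leaving out each library in turn.

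HBG1 sgRNA libraries with the same number deviated together from their group means across 11498 genes, with correlations of 0.553, 0.278 and 0.231, above the limit of 0.1 set for pairing. Replicates 2 and 3 also correlated above that limit when crossed (0.258 and 0.194), so the check does not settle which of their libraries belong together. Groups and numbers came from sample titles.

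Members and lists were chosen with earlier results of these data known. Library values are given for members called with a log2 fold change of at least 0.3 in size and for committed or rate-limiting enzymes, and from each other list at most the 4 highest and 4 lowest called genes are named, besides MTAP, MYC and MTHFD2. Some genes that this rule covers are not reported here.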

Additional observations from a re-analysis of the deposited data

How the results depend on the processing

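Of the 8 members called between rapamycin and DMSO (HBG1 sgRNA), all were kept with RLE scaling, DESeq2, no filter, a CPM filter, the replicate block and the additive model, and 7 and 6 with no scaling and with the 6 HBG1 sgRNA libraries alone without a block. The count of members called was 14 with DESeq2, 13 with the replicate block on all 9 libraries, 18 with the block on the 6 HBG1 sgRNA libraries and 18 with the additive model, and 3 to 10 when 1 library was left out. The shares of all genes called were 9.07%, 9.24%, 17.1% and 13.8% in the same order, and 2.85% to 7.36% with 1 library left out. Over all genes the 1609 calls became 3441 with that replicate block on 6 libraries and 3263 with the additive model, and 664 to 1731 with 1 library left out. Like for like, the block took the member calls from 6 to 18 on the 6 libraries and from 8 to 13 on all 9, and ended none of the 8. The share of all genes called went from 6.82% to 17.1% and from 6.80% to 9.24%. Signs turned, all without a call, when 1 library was left out, for ADSL (-0.19 to 0.05, with 0.02 without rapamycin replicate 3), IMPDH2 (-0.02 to 0.07, with -0.00 without DMSO replicate 3), RRM2B (-0.15 to 0.06) and NME2 (-0.11 to 0.06, with 0.03 without DMSO replicate 1 or rapamycin replicate 3). NME2 was also at 0.01 without scaling and at 0.00 with the CPM filter and with 6 libraries and no block.

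Between the guides under rapamycin, the 7 genes called among all became 13 with DESeq2, 91 with no filter, 21 with the replicate block and 3 to 7 with 1 library left out. For the interaction, the 1 gene called became 0 with no scaling, 0 with DESeq2, 0 with the CPM filter, 8 with no filter, 3 with the replicate block and 0 to 4 with 1 library left out. No member was called in either comparison under any of these. The cause of these shifts was not tested. Members had 305 to 17429 counts per library. With 3 libraries against 3, 19 members had an unadjusted p under 0.05 and 8 passed the adjustment. Of all 23675 genes tested, 4933 and 1609 did.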

Other observations

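MTAP, the purine salvage enzyme that recovers adenine from methylthioadenosine, had 0 counts in all 9 libraries. A count of 0 allows up to 3 counts per library, or 0.0949 to 0.152 CPM depending on depth. On chromosome 9 of GENCODE 29 (GRCh38) the protein-coding genes beside it, from HACD4 at 20999515 to DMRTA1 at 22455740 and including CDKN2A, CDKN2B and KLHL9, also had 0 counts in every library. The nearest genes with counts on either side were FOCAD, with 336 counts over the 9 libraries, and ELAVL2, with 2. The value was the same with both guides and both treatments.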
